A study of Mus musculus with 5 samples.

Results

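The circadian clock genes examined here are 10 genes found by symbol in the 5 deposited expression files, namely *Per1*, *Per2*, *Per3*, *Arntl*, *Clock*, *Cry1*, *Cry2*, *Nr1d1*, *Nr1d2* and *Dbp*. Each of the 10 matched 1 Ensembl identifier, out of 34615 symbols in the files, and none was removed by the filter on low values. The RNA came from brain microvascular fragments of 3 wild-type (WT) and 2 heterozygous Ins2-AKITA mice, all males of the C57BL6 strain (C57Bl/6-J in the study's methods) between 26 and 38 weeks of age and fed standard chow. The WT mice were littermates of the mutants. The Ins2-AKITA allele is a mutation of *Ins2*, an insulin gene. Its misfolded product harms pancreatic beta cells, so that 1 mutated copy makes male mice hyperglycemic, and the allele is carried by every cell of the body. Each library came from 1 mouse. All animals were killed within the same late-morning hour under a light-dark cycle of equal phases, but the hour of lights-on and the exact time for each mouse are not given in the sources used here. The fragments were pulled out of collagenase-treated brain with beads against PECAM1, an endothelial surface protein.

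The clock is a feedback loop of transcription. ARNTL (also called BMAL1) and CLOCK pair up, bind E-box sequences and switch on the *Per*, *Cry* and *Nr1d* genes and *Dbp*. PER and CRY proteins then return to block ARNTL and CLOCK, and the NR1D (REV-ERB) receptors repress *Arntl* itself. In most tissues, vessels included, *Arntl* RNA is therefore high at the time of day when *Per* and *Dbp* RNA is low, and the reverse. The ratio of *Arntl* to these genes within a mouse was taken here as a reading of clock phase, at 1 time of day only. Because it is taken inside 1 library it does not depend on how that library was scaled. It can still differ with the mix of cells in the library, so a difference in it does not by itself show a shift of phase. *Per1* is in addition a direct target of the glucocorticoid receptor and of CREB, a factor activated by cyclic AMP.

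Expression is given as FPKM, the number of sequenced fragments per kilobase of exon, scaled to library size. The files list no read numbers. From the step between low FPKM values the libraries were estimated to hold between 1120141 and 2829998 fragments, with WT replicate 3 the deepest. Vessel, glial and neuronal markers were all present. Beside the endothelial markers (6 of 6 detected, summed FPKM 310 to 558 in WT and 340 and 268 in Ins2-AKITA) stood markers of astrocytes (5 of 5, 1317 to 1962 in WT and 2359 and 2653 in Ins2-AKITA), neurons (5 of 5, 601 to 693 in WT and 602 and 702 in Ins2-AKITA) and smooth muscle (3 of 3, 209 to 248 in WT and 165 and 129 in Ins2-AKITA). Oligodendrocyte, microglial, pericyte and red cell markers were detected as well, and *Hbb-b2* in Ins2-AKITA replicate 2 was the only marker at 0 in any library. Clock genes are active in nucleated cells of most types, the vascular, glial and neuronal cells here included. In such bulk samples fewer cells of a type and less RNA per cell cannot be told apart.

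*Per1* differed most between the genotypes. *Per1* (ENSMUSG00000020893, NCBIM37 chromosome 11, 68908719 to 68923462, plus strand) encodes a repressor of the loop and is an early responder among the *Per* genes. It had an FPKM of 74.7, 37.8 and 33.6 in WT replicates 1 to 3 and of 15.5 and 19.4 in Ins2-AKITA replicates 1 and 2. Both Ins2-AKITA mice lay below every WT mouse, and WT replicate 1 lay well above the other 2 WT mice. The WT mean was 48.7 ± 22.6 (SD, n = 3) against 17.5 ± 2.77 (SD, n = 2), a level 2.79-fold lower in Ins2-AKITA. Without WT replicate 1 the level was still 2.04-fold lower.

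Counting error was smaller than this gap. The *Per1* values rest on an estimated 469, 268 and 515 fragments in WT against 94 and 134 in Ins2-AKITA mice. The exact Poisson 95% interval of the lowest WT mouse ran from 30.8 to 36.6 FPKM, and that of the highest Ins2-AKITA mouse from 16.3 to 23.0. These intervals cover counting error only and rest on fragment numbers estimated from the FPKM values.

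On the log2(FPKM + 1) scale the *Per1* difference was -1.34 (Ins2-AKITA minus WT, standard error 0.37, 95% confidence interval -2.23 to -0.45). In the limma fit over all 16286 genes its p was 0.0098 before and 0.90 after Benjamini-Hochberg adjustment, so *Per1* did not pass the adjusted threshold of 0.05. The exact two-sided permutation p was 0.1, the smallest that 3 mice against 2 allow. With 1 mouse left out in turn, the *Per1* difference lay between -1.56 and -0.99, the smallest being that without WT replicate 1. Its unadjusted limma p stayed under 0.05 without any 1 of the WT mice, and was 0.092 and 0.051 without Ins2-AKITA replicate 1 or 2, where the remaining Ins2-AKITA mouse is assumed to vary like the WT mice. Rescaling the values to TPM, in which every library has the same sum, moved the median difference of all genes from -0.03 to 1.07 and that of *Per1* to 0.30. Relative to the median of all genes the *Per1* difference was -1.31 on FPKM and -0.77 on TPM. TPM was fitted as log2(TPM + 1), and its values are smaller, so the added 1 weighs more on them. Scaling alone cannot change a difference relative to the median. With protein-coding scaling the *Per1* difference was -1.38, and with median-ratio scaling it was -1.32. The differences given here are on FPKM as deposited, and TPM moves all of them upward.

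**Figure D1:**
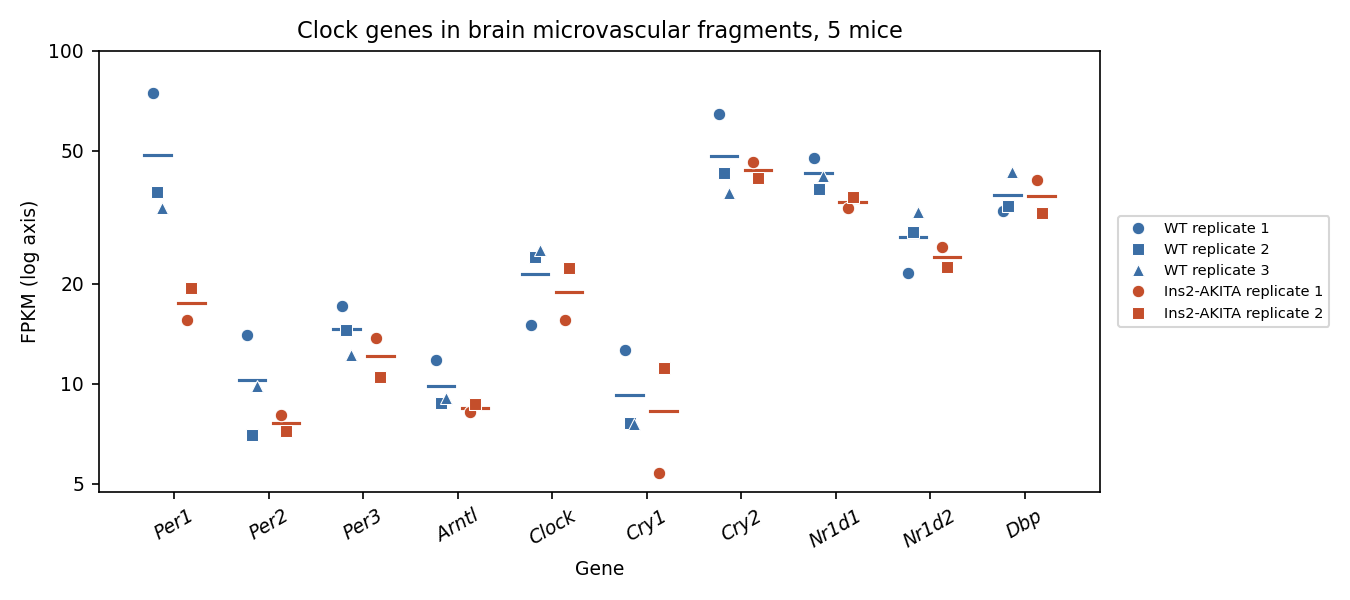
FPKM (log axis) of the 10 clock genes in each of the 5 mice, with bars at the group means (3 WT, 2 Ins2-AKITA). *Per1* is at 15.5 and 19.4 in Ins2-AKITA mice and at 33.6 or more in WT mice, while *Dbp* overlaps between the genotypes.

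The promoter windows of *Per1* are shown because this gene carries the largest difference. RefSeq (build GRCm38.p6) lists 2 start sites for it, and each window runs from 250 bases before to 50 after the start. The windows of the 13 starts listed for 9 of the 10 genes were searched on both strands for the E-box CACGTG, its variant CACGTT, the D-boxes TTATGTAA and TTACGTAA that DBP-type factors bind, the element TAGGTCA bound by ROR and REV-ERB receptors, and the CRE TGACGTCA. *Per2* was not matched. Capitals mark every match. The first window is chr11:69098699-69098998 and the second chr11:69099902-69100201, both on the plus strand.

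Per1, first start: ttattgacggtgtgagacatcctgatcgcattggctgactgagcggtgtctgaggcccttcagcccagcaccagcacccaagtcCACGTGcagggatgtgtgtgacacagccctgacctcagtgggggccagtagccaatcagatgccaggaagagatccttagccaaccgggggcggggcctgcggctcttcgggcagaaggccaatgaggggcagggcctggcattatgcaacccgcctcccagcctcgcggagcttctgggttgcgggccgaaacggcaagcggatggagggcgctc
Per1, second start: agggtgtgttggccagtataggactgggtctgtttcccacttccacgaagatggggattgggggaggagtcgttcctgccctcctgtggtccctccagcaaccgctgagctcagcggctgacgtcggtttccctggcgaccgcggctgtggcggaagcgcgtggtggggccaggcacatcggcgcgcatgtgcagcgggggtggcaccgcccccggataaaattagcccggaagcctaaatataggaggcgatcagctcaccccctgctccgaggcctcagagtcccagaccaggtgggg

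The first *Per1* window holds 1 E-box at position -166, counted from 0 at the start site, and the second holds none of the motifs searched. Of all 32851 windows of this length, 7.15% hold CACGTG. A match of these letters is a description of the window and does not show that a factor binds there.

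The other *Per* genes had lower levels and a smaller spread. *Per2* (chromosome 1, 93312561 to 93355907, minus strand), the main partner of the CRY proteins in repression, had 14.04, 7.02 and 9.82 FPKM in WT against 8.06 and 7.21 in Ins2-AKITA mice. The genotypes overlapped, since WT replicate 2 was the lowest of the 5. The difference of *Per2* was -0.34 on the log2 scale (standard error 0.33, 95% interval -1.14 to 0.45, adjusted p = 0.90 from limma). It was -0.11 without WT replicate 1 and -0.56 without WT replicate 2. *Per3* (chromosome 4, 150377761 to 150418774, minus strand), a modulator of the loop that is not required for it, had 17.1, 14.5 and 12.2 FPKM in WT against 13.7 and 10.5 in Ins2-AKITA mice. Here too the groups overlapped, with a difference of -0.25 (standard error 0.25, 95% interval -0.86 to 0.36), which was -0.14 without WT replicate 1, -0.43 without Ins2-AKITA replicate 1 and -0.075 without Ins2-AKITA replicate 2. In both genes WT replicate 1 was the highest mouse, as it was for *Per1*.

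*Arntl* and *Clock*, the activating arm, were low to moderate in level. *Arntl* (chromosome 7, 120350979 to 120457636, plus strand) had 11.8, 8.73 and 9.04 FPKM in WT against 8.25 and 8.69 in Ins2-AKITA mice. Its 2 lowest mice were the Ins2-AKITA mice, but Ins2-AKITA replicate 2 missed WT replicate 2 by less than the counting error. The *Arntl* values rest on an estimated 25 to 69 fragments per mouse, so that the 95% counting interval of Ins2-AKITA replicate 1 alone ran from 5.34 to 12.2 FPKM. The *Arntl* difference was -0.19 (standard error 0.25, 95% interval -0.80 to 0.43), and without WT replicate 1 it was -0.062. *Clock* (chromosome 5, 76639992 to 76733817, minus strand) had 15.0, 24.1 and 25.2 FPKM in WT against 15.5 and 22.2 in Ins2-AKITA mice. In *Clock* the replicates numbered 1 were low in both genotypes, and the difference was -0.16 (standard error 0.30, 95% interval -0.90 to 0.57).

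Of the *Cry* genes, which encode the repressors that bind ARNTL and CLOCK most directly, *Cry2* was several-fold above *Cry1* in every mouse. *Cry2* (chromosome 2, 92243803 to 92274200, minus strand) had 64.6, 42.9 and 37.5 FPKM in WT against 46.5 and 41.3 in Ins2-AKITA mice. WT replicate 1 was again the highest, and the other 4 mice overlapped. *Cry1* (chromosome 10, 84594447 to 84647799, minus strand) had 12.6, 7.61 and 7.55 FPKM in WT against 5.41 and 11.2 in Ins2-AKITA mice, so that the 2 Ins2-AKITA mice held both the lowest and the second highest value. The *Cry1* value of Ins2-AKITA replicate 1 rests on an estimated 17 fragments. The differences were -0.10 for *Cry2* (95% interval -0.75 to 0.55) and -0.18 for *Cry1* (95% interval -1.12 to 0.75).

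*Nr1d1* and *Nr1d2* encode the REV-ERB receptors that repress *Arntl*. *Nr1d1* (chromosome 11, 98629246 to 98636647, minus strand) had 47.8, 38.5 and 42.2 FPKM in WT against 33.8 and 36.4 in Ins2-AKITA mice. Both Ins2-AKITA mice were below all WT mice, but the gap between Ins2-AKITA replicate 2 and WT replicate 2 was within counting error. Its difference was -0.28 (standard error 0.19, 95% interval -0.73 to 0.18, adjusted p = 0.90 from limma). *Nr1d1* shares 263 of its 3124 exon bases with *Thra*, a thyroid hormone receptor gene on the opposite strand that stood at 547 to 727 FPKM. The libraries were stranded, but whether strand was used in counting is not given in the sources used here. *Nr1d2* (chromosome 14, 19036568 to 19071641, minus strand) had 21.5, 28.6 and 32.8 FPKM in WT against 25.7 and 22.3 in Ins2-AKITA mice, with WT replicate 1 the lowest of the 5 and a difference of -0.18 (95% interval -0.76 to 0.40). The *Nr1d2* difference was -0.34 without WT replicate 1, -0.050 without WT replicate 3, -0.28 without Ins2-AKITA replicate 1 and -0.083 without Ins2-AKITA replicate 2.

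*Dbp*, an output gene of the loop with one of the widest daily swings in many tissues, was at the same mean level in both genotypes. *Dbp* (chromosome 7, 52960458 to 52965525, plus strand) had 33.1, 34.2 and 43.3 FPKM in WT against 40.8 and 32.7 in Ins2-AKITA mice. The WT mean of *Dbp* was 36.9 ± 5.59 (SD, n = 3) against 36.8 ± 5.76 (SD, n = 2). The difference was -0.0028 on the log2 scale, with a 95% interval from -0.53 to 0.52. *Dbp* shares 491 exon bases with *Sphk2* and *Cry2* shares 295 with *D930015M05Rik*, both on the opposite strand and both at lower FPKM than the clock gene.

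**Figure D2:**
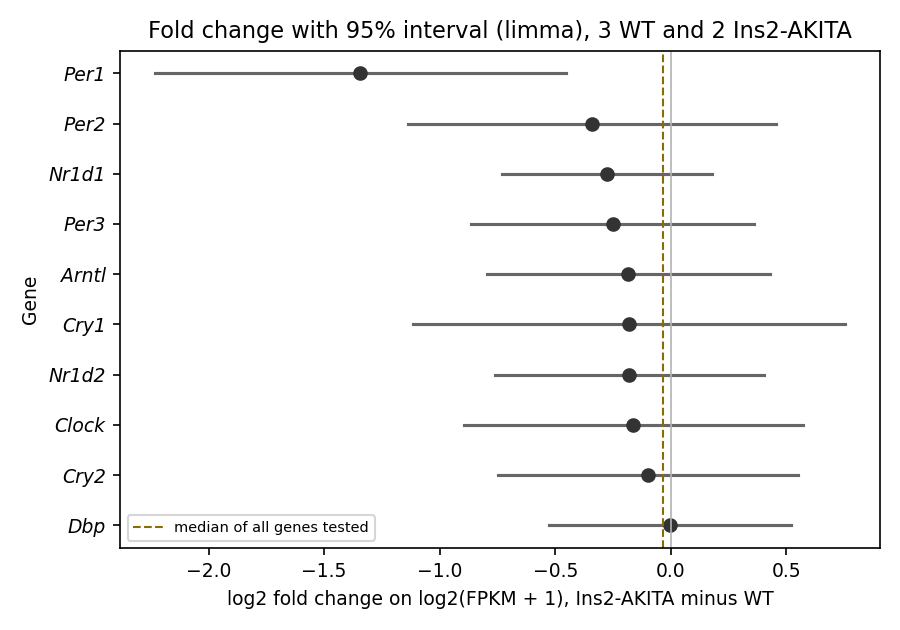
Difference between the genotypes on log2(FPKM + 1) for each clock gene (x axis, Ins2-AKITA minus WT; points, limma estimate; lines, 95% confidence interval) with the median of all genes tested as a dashed line at -0.03. The *Per1* interval alone (-2.23 to -0.45) lies to the left of 0. On TPM all 10 differences would lie to the right of 0, as the median of all genes does at 1.07.

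None of the 10 clock genes passed an adjusted p of 0.05 in limma, where 4 of the 16286 genes (0.0246%) did. At an unadjusted p under 0.05 there was 1 clock gene, *Per1*, against 4.46% of all genes tested in either direction and 2.93% lower in Ins2-AKITA. All 10 differences were negative on FPKM, with a median of -0.18, and all 10 were positive on TPM, whereas on FPKM 53.5% of all genes had a negative difference and their median was -0.03. Relative to the median of all genes 9 of the 10 were lower on FPKM and 5 of the 10 on TPM. Scaling alone cannot change this count, and the shift comes with the 1 added before the log. The 10 differences come from the same 5 mice and are not independent of each other. For 3 of the 10, *Per1*, *Arntl* and *Nr1d1*, both Ins2-AKITA mice were below all WT mice, against 10.3% of all genes, and for none were both above, against 9.24%. *Per1* was the 1 clock gene that was also at least 2-fold lower by its means, against 3.42% of all genes. WT replicate 1 held the highest value for 7 of the 10 genes, against 28.4% of all genes. Without WT replicate 1, 8 of the 10 differences were negative, with a median of -0.13, and both Ins2-AKITA mice were below the remaining WT mice for 5 genes, *Per1*, *Arntl*, *Clock*, *Nr1d1* and *Nr1d2*, against 15% of all genes.

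FPKM is a value per length, so levels can be set in order across genes. In WT mice *Per1*, *Cry2*, *Nr1d1* and *Dbp* had the highest means (48.7, 48.3, 42.8 and 36.9 FPKM) and traded places from mouse to mouse. *Nr1d2* was below *Dbp* and above *Clock* in all 5 mice, although in Ins2-AKITA replicate 2 *Nr1d2* and *Clock* were level within counting error. *Per2*, *Arntl* and *Cry1* were at the bottom, with WT means of 10.3, 9.85 and 9.25 FPKM, and their neighbouring ranks were not stable. *Per1* had ranks 1, 3 and 4 among the 10 genes in WT replicates 1 to 3 and was at rank 6 in both Ins2-AKITA mice, where *Cry2* was first. This ranking is made within a mouse and does not depend on scaling.

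The phase relation was read as the log2 ratio of *Arntl* to each of *Per1*, *Per2*, *Per3* and *Dbp* within a mouse. The promoter windows of *Arntl*, *Per3* and *Dbp* are shown for these genes, with capitals again marking matches. They are chr7:113207261-113207560 for the second *Arntl* start and chr7:45704997-45705296 for *Dbp*, both on the plus strand, and chr4:151044616-151044915 on the minus strand for *Per3*.

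Arntl, second start: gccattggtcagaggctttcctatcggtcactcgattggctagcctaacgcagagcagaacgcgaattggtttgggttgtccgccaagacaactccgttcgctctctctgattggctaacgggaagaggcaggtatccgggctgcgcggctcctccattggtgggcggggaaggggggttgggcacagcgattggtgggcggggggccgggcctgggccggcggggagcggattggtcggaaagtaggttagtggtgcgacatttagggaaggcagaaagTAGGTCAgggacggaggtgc
Per3: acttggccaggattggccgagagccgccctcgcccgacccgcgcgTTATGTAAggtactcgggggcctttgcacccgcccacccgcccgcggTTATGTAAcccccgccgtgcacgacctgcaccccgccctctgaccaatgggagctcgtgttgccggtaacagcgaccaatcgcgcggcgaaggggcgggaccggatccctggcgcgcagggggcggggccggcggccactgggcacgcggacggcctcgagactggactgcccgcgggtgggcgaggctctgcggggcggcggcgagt
Dbp: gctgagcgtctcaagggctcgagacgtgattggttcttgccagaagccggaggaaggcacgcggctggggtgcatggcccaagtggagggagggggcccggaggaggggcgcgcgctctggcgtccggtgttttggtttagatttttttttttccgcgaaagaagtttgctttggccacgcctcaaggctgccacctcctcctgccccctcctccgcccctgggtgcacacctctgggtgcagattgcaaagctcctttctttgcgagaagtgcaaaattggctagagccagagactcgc

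The *Arntl* window holds 1 TAGGTCA at position 30, the element through which REV-ERB receptors are known to repress this gene, and 2.61% of all windows hold it. In *Per3* the D-box TTATGTAA occurs at positions -205 and -158, against 0.938% of windows with at least 1 match. The *Dbp* window holds none of the motifs searched. Of the windows not shown, *Cry1* has 1 CACGTG and 1 CACGTT, *Cry2* and *Nr1d1* have 1 CACGTT each, and those of *Clock*, *Nr1d2* and the first *Arntl* start have none. CACGTT occurs in 4.68% of all windows. TTACGTAA and TGACGTCA were in none of the 13 windows, against 0.119% and 1.79% of all windows.

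The *Arntl* to *Per1* log2 ratio was -2.67, -2.11 and -1.89 in WT mice against -0.91 and -1.16 in Ins2-AKITA mice. Both Ins2-AKITA mice were above all WT mice, by 1.19 on average. The *Arntl* to *Per2* ratio was -0.25, 0.31 and -0.12 in WT against 0.033 and 0.27 in Ins2-AKITA mice, and the groups overlapped. For *Per3* it was -0.54, -0.73 and -0.43 in WT against -0.73 and -0.27 in Ins2-AKITA mice, again with overlap. The *Arntl* to *Dbp* ratio was -1.49, -1.97 and -2.26 in WT against -2.31 and -1.91 in Ins2-AKITA mice. Here the mean difference had the opposite sign, at -0.20, within the SD of the WT mice of 0.39.

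Averaged over the 4 ratios, the value was -1.24, -1.13 and -1.18 in WT against -0.98 and -0.77 in Ins2-AKITA mice, a difference of 0.31. With the *Per1* ratio taken out of the average, a step added after the values had been seen, the difference was 0.012 and the groups overlapped. The higher average in Ins2-AKITA mice thus came with the *Per1* ratio, and the remaining 3 ratios did not separate the genotypes. No test is given for these scores, as their genes were chosen. *Nr1d1* relative to *Arntl* lay between 2.02 and 2.22 on the log2 scale in all 5 mice. With an estimated 25 to 69 *Arntl* fragments per mouse, counting error is wider than this range, so constancy of the ratio cannot be judged. *Clock* relative to *Arntl* ranged from 0.35 in WT replicate 1 to 1.48 in WT replicate 3, with the Ins2-AKITA mice in between at 0.91 and 1.35.

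**Figure D3:**
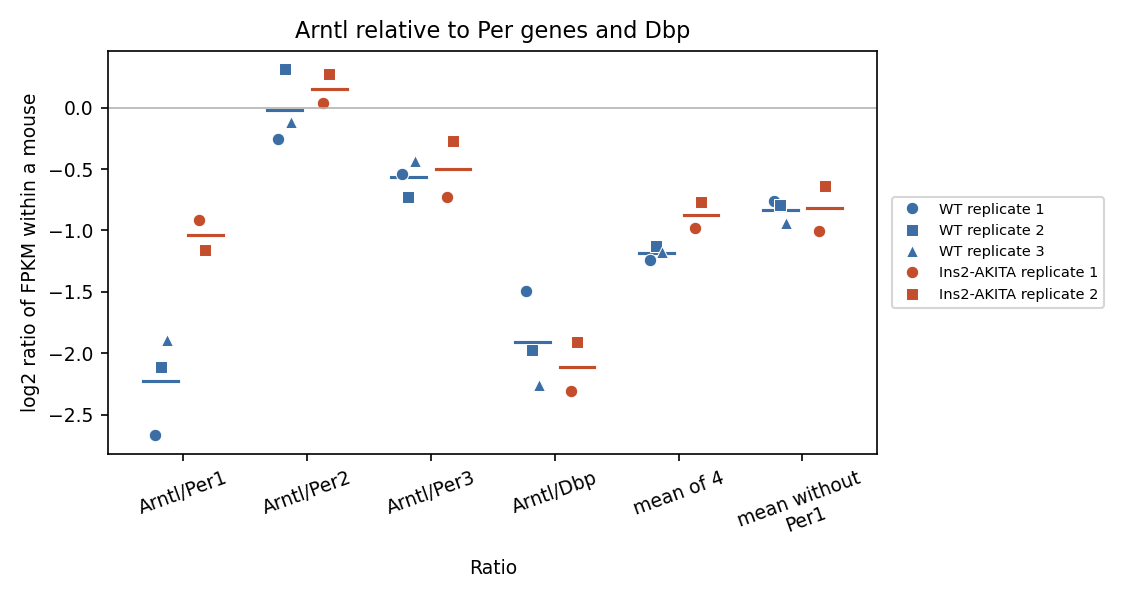
Log2 ratio of *Arntl* to *Per1*, *Per2*, *Per3* and *Dbp* FPKM within each mouse, with the mean of the 4 ratios and the mean without *Per1* (bars, group means of 3 WT and 2 Ins2-AKITA mice). The *Per1* ratio separates the genotypes (-1.89 or less in WT, -1.16 or more in Ins2-AKITA), and the ratios to *Per2*, *Per3* and *Dbp* overlap.

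*Per1* was also low relative to the other repressors. The log2 ratio of *Per1* to *Per2* was 2.41, 2.43 and 1.78 in WT against 0.95 and 1.43 in Ins2-AKITA mice. Relative to *Cry2* it was 0.21, -0.18 and -0.16 in WT against -1.58 and -1.09 in Ins2-AKITA mice. Both Ins2-AKITA mice were below all WT mice in the ratio of *Per1* to *Per2*, *Per3*, *Cry2*, *Nr1d1* and *Dbp*, with mean differences of -1.02, -1.12, -1.29, -1.11 and -1.39. These ratios share *Per1* and are not separate evidence.

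The other genes of the clock were taken from lists of textbook members. Of 6 partners and repressors 0 passed the adjusted threshold in limma and 0 had an unadjusted p under 0.05, with 2 negative and 4 positive differences and a median of 0.06. The extremes were *Gm129*, now called *Ciart*, a repressor driven by the loop, and *Arntl2*, a paralog of *Arntl*. *Gm129* had 30.9, 7.27 and 9.75 FPKM in WT against 7.61 and 3.82 in Ins2-AKITA mice, so that WT replicate 1 stood far above the rest, and the difference was -1.14 (standard error 0.62). Without WT replicate 1 it was -0.55, and without Ins2-AKITA replicate 2 it was -0.72. *Arntl2* had 3.17, 18.9 and 2.03 FPKM in WT against 4.07 and 17.8 in Ins2-AKITA mice. Its high mice were the replicates numbered 2 of both genotypes, and the difference of 0.63 (standard error 0.93) was smaller than the spread within them.

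The ROR receptors activate *Arntl* through the element that REV-ERB receptors use to repress it. *Rora* had 56.8, 44.3 and 48.8 FPKM in WT against 39.0 and 42.4 in Ins2-AKITA mice. Both Ins2-AKITA mice were below all WT mice, as for 10.3% of all genes. The *Rora* difference was -0.28 (standard error 0.19, adjusted p = 0.90 from limma). *Rorb* had a difference of 0.50 (standard error 0.34), with overlapping groups. Of the DBP relatives *Tef* and *Hlf* and their opponent *Nfil3*, none separated the genotypes, and the differences ran from -0.40 for *Nfil3* to 0.11 for *Hlf*. For *Rora*, *Rorb* and these bZIP genes 0 passed the adjusted threshold in limma and 0 had an unadjusted p under 0.05.

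The kinases that mark PER and CRY proteins for degradation and the ubiquitin ligases that carry it out numbered 9. None passed the adjusted threshold in limma and 0 had an unadjusted p under 0.05, with a median difference of 0.12, from -0.29 for the CRY ligase gene *Fbxl21* to 0.52 for the kinase subunit gene *Csnk2a1*. The casein kinase gene *Csnk1d* had 34.3, 35.5 and 40.8 FPKM in WT against 45.2 and 41.4 in Ins2-AKITA mice. For *Gsk3b*, another kinase gene, the values were 39.2, 35.2 and 39.1 in WT against 40.0 and 46.2 in Ins2-AKITA mice. In both genes the Ins2-AKITA mice were above all WT mice, with differences of 0.23 (standard error 0.18) and 0.18 (standard error 0.18). This is 2 of 9, against 9.24% of all genes.

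Among 9 clock-controlled output genes, 4 of which also stand among the genes above (*Tef*, *Hlf*, *Bhlhe41* and *Cry1*), 5 differences were negative and 4 positive, with a median of -0.13. None passed the adjusted threshold in limma and 0 had an unadjusted p under 0.05. *Wee1*, which encodes a cell cycle kinase and is driven through E-boxes, had 7.99, 8.83 and 7.16 FPKM in WT against 5.17 and 5.45 in Ins2-AKITA mice. Both Ins2-AKITA mice were below all WT mice, which was so for 1 of the 9 genes and for 10.3% of all genes. The *Wee1* difference was -0.51 (standard error 0.26, adjusted p = 0.90 from limma) and the exact permutation test gave p = 0.1. *Bhlhe41*, a repressor that competes for E-boxes, was at the other end with 0.52 (standard error 0.30) and overlapping groups. Its difference was 0.85 without Ins2-AKITA replicate 1 and 0.20 without Ins2-AKITA replicate 2.

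Since *Per1* also answers to glucocorticoids and to immediate early signals, these lists are given beside it. All 6 glucocorticoid target genes had a negative difference on FPKM. Below the median of all genes were 6 on FPKM and 4 on log2(TPM + 1), where the added 1 weighs more. Their median was -0.54 on FPKM, with 0 past the adjusted threshold and 0 at an unadjusted p under 0.05 in limma. Their summed FPKM was 280, 132 and 121 in WT against 89.4 and 121 in Ins2-AKITA mice, and none was at 0 in any mouse. WT replicate 1 was the highest mouse for 5 of the 6, as for *Per1*, against 28.4% of all genes. *Tsc22d3*, which encodes the anti-inflammatory protein GILZ, had 80.6, 20.9 and 42.1 FPKM in WT against 15.9 and 24.7 in Ins2-AKITA mice (difference -1.03, standard error 0.54, and -0.56 without WT replicate 1). *Dusp1*, a phosphatase gene, had 33.6, 21.7 and 21.4 FPKM in WT against 12.9 and 18.6 in Ins2-AKITA mice (difference -0.66, standard error 0.29, and -0.41 without Ins2-AKITA replicate 1). It alone of the 6 had both Ins2-AKITA mice below all WT mice, against 10.3% of all genes. *Pdk4* was closest to 0, at -0.13. *Fkbp5*, singled out after its values had been seen, had 37.1, 8.99 and 7.67 FPKM in WT against 6.69 and 10.3 in Ins2-AKITA mice, so that apart from WT replicate 1 its mice did not separate. The part of glucocorticoid signalling in the *Per1* difference was not tested.

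**Figure D4:**
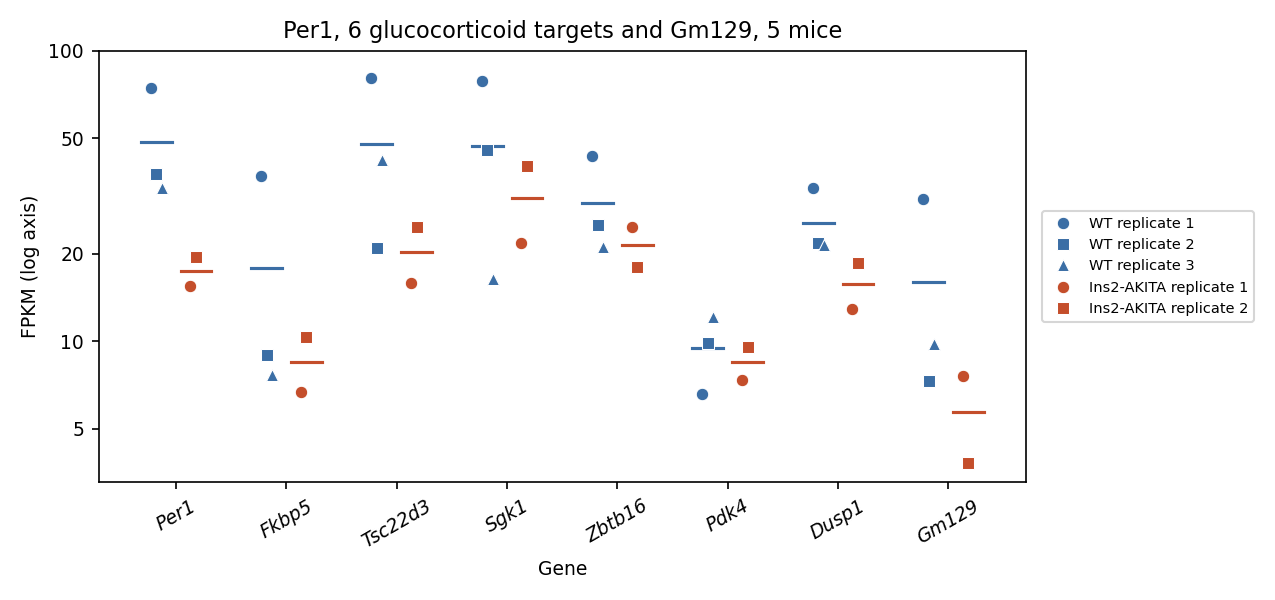
FPKM (log axis) of *Per1*, 6 glucocorticoid target genes and the clock repressor gene *Gm129* in each mouse, with bars at the group means (3 WT, 2 Ins2-AKITA). WT replicate 1 is the highest mouse for all but *Pdk4*, and both Ins2-AKITA mice are below all WT mice for *Per1* and *Dusp1*. *Gm129* comes from the list of 6 partners and repressors, and is the 1 gene of that list highest in WT replicate 1.

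Of 8 immediate early genes, which mark recent cell stimulation and tissue handling, 7 had a negative difference on FPKM (median -0.35). In limma 0 passed either threshold. Below the median of all genes were 7 on FPKM and 3 on log2(TPM + 1), where the added 1 weighs more. *Jun*, *Junb* and *Nr4a1* had both Ins2-AKITA mice below all WT mice, with differences of -0.39, -0.44 and -0.36 (standard errors 0.24, 0.24 and 0.21). This is 3 of 8, against 10.3% of all genes. *Fos* was at 0.02. The summed FPKM of the 8 was 198, 260 and 371 in WT against 198 and 214 in Ins2-AKITA mice. Unlike for *Per1*, WT replicate 1 was the highest mouse for 1 of these 8 genes. Cell type markers also differed in level. Of 6 endothelial genes 5 had a negative difference, with a median of -0.39, and both Ins2-AKITA mice were below all WT mice for *Pecam1* and *Cdh5*. *Pecam1*, the gene of the capture antigen, had 92.8, 91.0 and 65.8 FPKM in WT against 63.1 and 58.3 in Ins2-AKITA mice. Of 5 pericyte genes 4 had a negative difference, with a median of -0.47, and *Vtn* alone had both Ins2-AKITA mice below all WT mice. The pericyte sum was 184 to 234 FPKM in WT against 208 and 162 in Ins2-AKITA mice. Below the median of all genes were 5 of the 6 endothelial and 3 of the 5 pericyte genes on FPKM, and 1 and 2 on log2(TPM + 1). These drops come with the added 1, since scaling alone cannot change a count relative to the median. The 3 smooth muscle genes *Acta2*, *Tagln* and *Myh11* each had both Ins2-AKITA mice below all WT mice, where 10.3% of all genes do. Their differences were -0.60, -0.70 and -0.61. All 5 astrocyte differences were positive, up to 1.03 for *Aldh1l1*. Both Ins2-AKITA mice were above all WT mice for *Aldh1l1* and *Slc1a2*, against 9.24% of all genes. On FPKM 3 neuron differences were negative and 2 positive, and *Rbfox3* alone had both Ins2-AKITA mice below all WT mice. Oligodendrocyte differences were 2 negative and 2 positive, and all 4 microglial differences were positive. Relative to the median of all genes, 3 of the 3 smooth muscle genes were lower on FPKM and 2 on log2(TPM + 1). All 5 astrocyte genes were higher on both. The summed red cell markers were 35.1 to 67.7 FPKM in WT against 32.4 and 25.1 in Ins2-AKITA mice. None of these marker genes passed the adjusted threshold in limma. The 3 smooth muscle genes and *Aldh1l1*, *Cdh5* and *Hba-a2* had an unadjusted p under 0.05, as did 4.46% of all genes tested. Their part in the *Per1* difference was not tested.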

How the data were processed

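RNA of brain microvascular fragments was sequenced in 5 libraries, 1 per mouse. Stranded libraries were made from total RNA after removal of ribosomal RNA. The authors mapped reads to NCBIM37 with TopHat2 2.0.4, removed duplicates with Picard 1.92 and tested with Cufflinks 2.2.1. The deposited values are FPKM per Ensembl gene. The program that wrote them is not given in the sources used here.

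Of 37982 identifiers 37197 matched GENCODE vM1 of NCBIM37, and rows sharing a symbol were summed. Genes with a mean FPKM of at least 1 (16286) were fitted on log2(FPKM + 1) with limma 3.58.1 in R 4.3.3 (eBayes with a trend, two-sided, Benjamini-Hochberg). Fold changes on this scale understate those of low genes. The FPKM values were not rescaled. The fit was tested on simulated data. Other steps used Python 3.11.15 and scipy 1.17.1. Library size was estimated from genes with 1 transcript, whose low FPKM were whole multiples of 1 fragment (within 3%) for 97.95% to 98.32% of values per mouse. Fragments per clock gene assume the union of its exons. P-values measure the spread between these mice.

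The members and lists were chosen with earlier results of these data known. Named are all members, and from each list the extremes, genes past the threshold and genes whose Ins2-AKITA values lie outside the WT range. 1 named gene is not reported here. Alternatives were a pseudocount of 0.1, no filter or a filter at 5, TPM, protein-coding and median-ratio scaling, a constant prior, the highest row per symbol, a replicate block and each mouse left out.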

Additional observations from a re-analysis of the deposited data

How the results depend on the processing

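TPM, which sets every library to 1 sum, shifted the median difference of all genes from -0.03 to 1.07. The summed FPKM of all genes, which sets this scale, ran from 1531575 in Ins2-AKITA replicate 2 to 13025905 in WT replicate 1, and that of protein-coding genes from 362796 to 391008. At an unadjusted p under 0.05, 249 genes were higher and 477 lower on FPKM, against 1808 and 105 on TPM. Relative to the median of all genes *Per1* lay between -1.49 and -0.77 under every alternative, TPM included. TPM turned all 10 clock differences positive, leaving 0 negative, 0 at an unadjusted p under 0.05 and 0 with every Ins2-AKITA mouse below all WT mice: *Per1* 0.30, *Per2* 0.84, *Per3* 1.06, *Arntl* 1.00, *Clock* 1.22, *Cry1* 1.03, *Cry2* 1.47, *Nr1d1* 1.28, *Nr1d2* 1.25 and *Dbp* 1.49. It did the same to *Gm129* (0.22), *Rora* (1.29), *Nfil3* (0.47), *Fbxl21* (0.74), *Wee1* (0.67), *Junb* (1.09), *Jun* (1.19), *Nr4a1* (1.12), *Tsc22d3* (0.55), *Pdk4* (0.98) and *Dusp1* (0.85). The within-mouse ratios are the same under any scaling. *Dbp* was 0.023 with median-ratio scaling, which moved the median of all genes from -0.035 to -0.012. *Fos* was -0.019 with protein-coding scaling, which moved that median to -0.070. Both values are near 0.

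With 1 mouse left out in turn the ranges were -0.41 to 0.083 for *Clock*, -0.64 to 0.28 for *Cry1*, -0.26 to 0.13 for *Cry2*, -0.16 to 0.15 for *Dbp*, -0.32 to 1.57 for *Arntl2*, -0.0016 to 0.18 for *Hlf*, -0.69 to 0.11 for *Fbxl21*, -0.24 to 0.28 for *Fos* and -0.34 to 0.052 for *Pdk4*. Other differences kept their sign but moved by over 1.5 times in at least 1 of these fits: *Rora* (-0.19 without WT replicate 1), *Nfil3* (-0.21 without WT replicate 1), *Csnk2a1* (0.33 without WT replicate 1), *Rorb* (0.25 without WT replicate 1, 0.76 without WT replicate 3 and 0.30 without Ins2-AKITA replicate 2), *Gsk3b* (0.28 and 0.082 without Ins2-AKITA replicate 1 or 2), *Jun* (-0.22 without WT replicate 3) and *Junb* (-0.27 without WT replicate 2). The mean of the 4 *Arntl* ratios differed by 0.20 to 0.41. With a WT mouse left out, 1 clock gene had an unadjusted p under 0.05 in limma. At that p 353, 311 and 908 of all 16286 genes were lower without WT replicates 1, 2 and 3, and 244, 196 and 494 higher. With a WT mouse left out, 4 to 5 clock genes had every Ins2-AKITA mouse below all remaining WT mice. Leaving out a mouse can only keep or raise this last count, which was 3 with all mice. Without WT replicate 1 the share over all genes was 15%, against 10.3% with all mice. That share was not computed without WT replicate 2 or 3, so the counts there cannot be set against all genes. Over all genes with a WT mouse left out, 0 to 1 were higher and 2 to 6 lower at the adjusted threshold, against 0 and 4 with all mice. TPM gave 58 higher and 30 lower, a constant prior 1 and 2, and no filter or the filter at 5 gave 2 lower each. No clock gene passed the adjusted threshold under any alternative.

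The replicate numbers are shared by both genotypes, but the sources name no pairs, and with 2 Ins2-AKITA mice the deviations are exact opposites, so that a correlation cannot show pairing. With the replicate block 0 genes were higher and 5 lower, *Per1* was at -1.56 (adjusted p = 0.60 from limma), *Dbp* at 0.12 and *Pdk4* at 0.052. WT replicate 3 has no partner in that fit. The block changed no call of a clock gene. For *Arntl* and *Cry1*, with 17 to 69 estimated fragments per mouse, depth limits what can be seen.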

Other observations

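The protein-coding genes whose values over the 5 mice lay closest to those of a clock gene were found by the mean absolute difference of log2(FPKM + 1), each gene centred on its own mean, among 10459 genes with a mean FPKM of at least 5. For *Arntl* they were *Scn3b* (0.011), a sodium channel subunit gene, *Fgd1* (0.031) and *Rhob* (0.031), a small GTPase gene. *Scn3b* had 18.7, 13.8 and 14.3 FPKM in WT against 13.1 and 13.5 in Ins2-AKITA mice. It was picked for its likeness to *Arntl*, so the shared high mouse, WT replicate 1, follows from the search. For *Dbp* they were *Clic4* (0.029), *Ttc9* (0.033) and *Ccnk* (0.033). *Clic4*, which encodes an intracellular chloride channel protein, had 52.4, 56.2 and 68.9 FPKM in WT against 61.3 and 51.9 in Ins2-AKITA mice. The same search for *Per1* was added after its values had been seen. It gave larger distances, with *Vmp1* (0.11), an autophagy gene, *RP23-115O3.9* (0.13) and *Tspan4* (0.15). *Vmp1* had 102 FPKM in WT replicate 1, against 44.0 and 44.9 in WT replicates 2 and 3 and 22.7 and 30.6 in the mutants.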
